A study of Mus musculus with 18 samples.

Results

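Translation initiation factor genes were followed through single nuclei of the mouse hippocampus (Hip) and prefrontal cortex (PFC). The group was set by gene symbol, as every gene whose symbol begins with Eif and a digit from 1 to 6, leaving out pseudogenes, the sex-linked Eif2s3x and Eif2s3y, and Eif2ak2. This gave 53 of the 30905 genes in the files, from 56 matching symbols. By factor complex they were 5 genes of eIF1 and eIF1A, 2 of eIF2, 3 eIF2 kinases, 5 of eIF2B, 14 of eIF3, 5 of eIF4A, eIF4B and eIF4H, 4 of eIF4E, 4 eIF4E partners, 3 of eIF4G, 4 of eIF5, eIF5A and eIF5B, Eif6, Eif2a with Eif2d, and Eif2c5. The annotation lists Eif2c5 as a noncoding RNA.

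The nuclei came from 9 Kun Ming mice, an outbred stock, all 8 weeks old, with 1 library for each region of each mouse and 18 libraries in all. The mice were 3 germ-free (GF) mice, raised without any microbes, 3 specific pathogen-free (SPF) mice, which carry a microbiota, and 3 colonized germ-free (CGF) mice, which were born germ-free and housed with SPF mice from 4 weeks of age. GF and CGF mice were kept in isolators and SPF mice were raised under other conditions, so that housing and microbiota cannot be told apart between GF and SPF mice. Each library holds counts of unique molecular identifiers (UMIs), which stand for single captured RNA molecules. The study asked how the presence of gut microbes changes transcription in each cell type of the brain, and the CGF mice ask whether colonization after weaning moves GF values toward SPF values.

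Initiation is the step at which a ribosome is loaded on an mRNA and finds its start codon. The factor eIF2 brings the initiator tRNA and is recharged by its exchange factor eIF2B, while eIF1, eIF1A and the large scaffold eIF3 hold the small ribosomal subunit open for scanning, and the cap-binding eIF4E, the scaffold eIF4G and the helicase eIF4A bring the mRNA. Kinases that phosphorylate the alpha subunit of eIF2 block eIF2B and start the integrated stress response, and the eIF4E-binding proteins hold eIF4E back until mTORC1 releases it. In neurons these controls are known for their part in synaptic plasticity and memory, and mutations in eIF2B cause a leukodystrophy.

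Nuclei were assigned to a type by 11 lists of marker genes. In Hip the gate held 27478 excitatory neurons, 3358 interneurons, 5023 astrocytes, 5692 oligodendrocytes, 1612 oligodendrocyte precursor cells (OPC) and 1402 microglia of 71398 nuclei, and in PFC it held 33475, 4819, 4111, 2594, 1547 and 1330 of 66602. Own markers were highest in each gated type, which the gate itself sets because it used the same lists. The summed microglial markers, for example, were at 7433 to 9339 counts per 1000000 UMIs in Hip microglia. Excitatory markers were not absent from glia and interneurons, at 441.8 to 1167 of 1000000 UMIs in Hip and 444.8 to 1148 in PFC, against 2928 to 3502 and 3852 to 4523 in the excitatory neurons themselves. Hip libraries held 49067853 to 63217083 UMIs in all, but GF nuclei were shallower. The median excitatory nucleus of a GF library held 7077 to 7429 UMIs, while that of an SPF library held 9640 to 10622.5 and that of a CGF library 8920 to 11382. In PFC the GF libraries held 59126586 to 71463928 UMIs and the SPF and CGF libraries 20336250 to 26949210, and counts from thinned libraries are given beside the PFC counts of GF against SPF or CGF mice. Marker lists of other types often differed between GF and SPF mice. Of 60 combinations of a list and another type per region, the GF mice lay below all SPF mice in 20 and above them in 2 in Hip, and below in 9 and above in 17 in PFC. Per 1000000 UMIs, astrocyte markers in PFC excitatory neurons were at 138.6 to 162.4 in GF and 251.3 to 278.9 in SPF mice, excitatory markers in PFC interneurons at 444.8 to 553.2 and 729.8 to 805, and astrocyte markers in Hip oligodendrocytes at 233.4 to 264.9 and 413.9 to 487.5. On the same scale, interneuron markers in PFC OPC were at 2729 to 3046 in GF and 1757 to 2093 in SPF mice, but in Hip OPC at 2291 to 2876 in GF and 3062 to 3433 in SPF mice. Astrocyte markers in Hip microglia were at 2274 to 2464 in GF and 2851 to 4071 in SPF mice, and oligodendrocyte markers in Hip microglia at 403.2 to 484.4 and 754.4 to 1049. Choroid plexus markers in Hip microglia ranged from 34.65 to 7889 in GF and from 417.9 to 2247 in SPF mice, so that the groups overlapped. Mitochondrial UMIs also followed the groups, at 0.645% to 1.10% in GF against 0.128% to 0.471% in SPF in Hip, and at 0.359% to 0.594% in GF against 1.66% to 3.22% in SPF in PFC, and the part of these markers and of mitochondrial UMIs in the results was not tested.

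Promoter sequence is shown for 6 members that carried the contrasts described below, 3 that were higher in GF mice in Hip (Eif1, Eif5a and Eif3f) and 3 that were lower in GF mice in PFC (Eif5b, Eif3a and Eif3g). They were chosen after their values were seen. Each line is the 80 bases before the outermost annotated start, 5′ to 3′ on the strand of the gene, from RefSeq on GRCm38.p6, and capitals mark the motifs searched.
Eif1: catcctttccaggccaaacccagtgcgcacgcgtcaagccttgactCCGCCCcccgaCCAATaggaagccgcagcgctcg
Eif5a: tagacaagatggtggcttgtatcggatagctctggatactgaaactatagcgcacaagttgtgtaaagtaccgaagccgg
Eif3f: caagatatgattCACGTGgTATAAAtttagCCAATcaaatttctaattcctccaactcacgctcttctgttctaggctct
Eif5b: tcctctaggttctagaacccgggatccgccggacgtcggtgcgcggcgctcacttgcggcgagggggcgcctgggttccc
Eif3a: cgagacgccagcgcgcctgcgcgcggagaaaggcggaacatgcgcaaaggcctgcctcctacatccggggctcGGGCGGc
Eif3g: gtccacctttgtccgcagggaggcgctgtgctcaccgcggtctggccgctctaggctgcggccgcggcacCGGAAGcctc

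These windows lie at chr11:100319805-100319884 for Eif1 (plus strand), chr11:69921959-69922038 for Eif5a (minus), chr7:108934335-108934414 for Eif3f (plus), chr1:37997930-37998009 for Eif5b (plus), chr19:60790694-60790773 for Eif3a (minus) and chr9:20898624-20898703 for Eif3g (minus). The 6 motifs, searched on both strands, were the GC box GGGCGG, the CCAAT box, the ETS core CGGAAG, the E-box CACGTG, the cAMP response element TGACGTCA and TATAAA. Over the 250 bases before the start, 41 of the 53 members had an entry among 27025 genes. The GC box was present in 73.2% of these members and in 35.4% of all genes, CGGAAG in 46.3% and 15.3%, and CACGTG in 22% and 6.86%. CCAAT was present in 34.1% of members and 37.5% of all genes, TATAAA in 7.32% and 14.3%, and TGACGTCA in 0% and 1.77%. A match is a description of the letters and no evidence that a factor binds. In the 80 bases shown, Eif1 and Eif3f each held a CCAAT box, Eif1 and Eif3a a GC box, and Eif5a and Eif5b none of the 6 motifs.

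After filtering on low counts, 49 of the 53 members could be tested in at least 1 of the 12 combinations of region and type, and 11 in all 12. Eif2c5, Eif4e3, Eif4e1b and Eif4ebp3 passed the filter nowhere. The members together made up between 0.195% and 0.216% of a library's UMIs in Hip of GF mice, against 0.158% and 0.190% as the lowest and highest SPF values. In PFC the order was turned, with GF libraries between 0.164% and 0.178% and SPF libraries between 0.260% and 0.273%.

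The same turn was present inside each type of neuron. In Hip excitatory neurons the members summed to 1798, 1902 and 1883 counts per 1000000 UMIs (raw totals) in the 3 GF mice, 1436, 1483 and 1667 in SPF mice and 1355, 1368 and 1478 in CGF mice. In PFC excitatory neurons the values were 1597, 1496 and 1597 in GF mice, 2681, 2677 and 2541 in SPF mice and 2529, 2471 and 2939 in CGF mice. GF mice did not overlap with the other groups in either region, and stood above them in Hip and below them in PFC. Microglia had the highest summed level among the 6 types in every Hip library, at 3701 to 4085 in GF and 3119 to 3250 in SPF mice. In PFC microglia the groups overlapped, with 3890, 3354 and 3615 in GF and 3426, 4187 and 3626 in SPF mice.

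**Figure D1:**
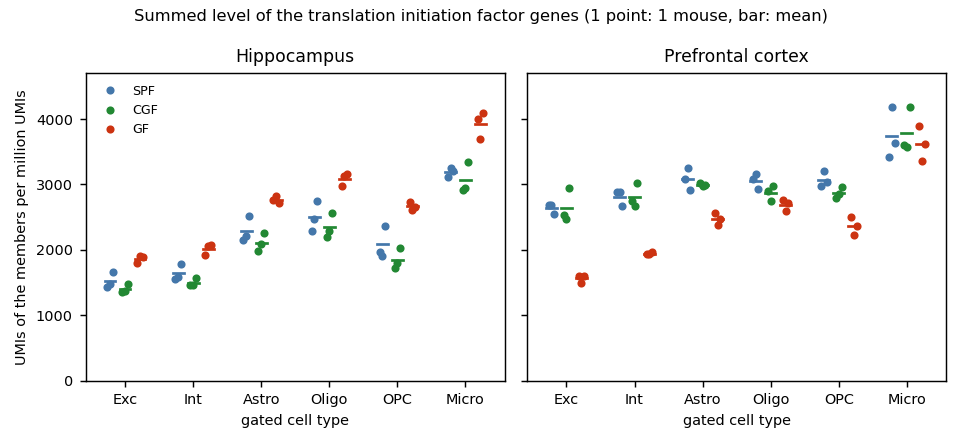
UMIs of all 53 members per 1000000 UMIs (vertical axis) in each gated cell type (horizontal axis), 1 point per mouse and a bar at the mean of 3 mice, for Hip on the left and PFC on the right. GF points lie above SPF and CGF points in all 6 Hip types and below SPF points in 5 PFC types, while in PFC microglia the groups overlap.

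In Hip, the members that were higher in GF than in SPF mice were led by Eif1 and Eif1b, factors of start codon selection, and those that were lower included 2 eIF2 kinases and the scaffold Eif4g3. Counting each pair of a member and a cell type, 262 pairs were tested with edgeR's quasi-likelihood test, and 79 were higher and 16 lower in GF mice at an adjusted p under 0.05. Over all genes and types the test called 19.4% higher and 15.9% lower, against 30.2% and 6.11% of the member pairs. The median log2 difference of the members was lowest in excitatory neurons (0.25) and microglia (0.28) and highest in OPC (0.36) and oligodendrocytes (0.47), while the median of all genes tested lay between -0.01 and 0.04. By type, 23 members were higher and 8 lower of 49 in excitatory neurons, where 25.1% and 21.1% of all genes were called. In interneurons 13 of 47 were higher and 4 lower (all genes 20.9% and 17.6%), and in astrocytes 13 of 47 were higher and 1 lower (18% and 15.4%). In oligodendrocytes the counts were 17 and 2 of 47 (20.1% and 15.4%), in OPC 5 and 0 of 39 (12.1% and 8.31%) and in microglia 8 and 1 of 33 (13.4% and 10.8%). With a per-library offset that takes out the dependence on gene length and GC content, 34 pairs were higher and 17 lower (13% and 6.49%). Over all genes the shares under this offset were 11.8% and 9.24%, so that the member share of higher pairs lay near that of all genes. With the sums of all Hip libraries thinned to their lowest mean depth per nucleus, 74 pairs were higher and 15 lower of 255 (29% and 5.88%, all genes 19.2% and 15.6%). Leaving out GF mouse 6 left 50 higher and 10 lower. With total UMIs in place of TMM factors, the median of all genes moved to 0.21 in excitatory neurons (34.2% higher and 11.9% lower) and 0.13 in interneurons (25.8% and 10.9%), and 28 and 20 members were higher and 4 and 0 lower there. Eif3f and Eif3m in microglia, both higher, passed the filter only with the GF libraries.

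Eif1, whose product guards the choice of the start codon, and its close paralog Eif1b were higher in GF mice in all 6 Hip types. In excitatory neurons Eif1 was at 96.9, 115 and 108 CPM (counts per 1000000 UMIs after TMM scaling of the libraries) in GF mice, 32.6, 35.8 and 55.2 in SPF mice and 28.4, 32.8 and 48.1 in CGF mice. Every GF mouse was above every SPF and CGF mouse. Groups without overlap were common, as GF and SPF mice were apart for 56.8% of all genes in Hip excitatory neurons. In the other Hip types they were apart for 35.7% to 50.1% of all genes. The log2 difference between GF and SPF was 1.37 ± 0.22 (SE, n = 3 mice per group, adjusted p = 0.000822, edgeR), and over the other types it ran from 1.19 in microglia to 1.49 in oligodendrocytes. In Hip microglia Eif1 was at 353, 405 and 442 CPM in GF and 144, 174 and 227 in SPF mice. Eif1b was at 71.2, 86.9 and 83.3 CPM in GF excitatory neurons against 22.9, 24.8 and 35.9 in SPF, a log2 difference of 1.53 ± 0.20 (adjusted p = 0.000255, edgeR). In interneurons, where its difference was largest, it reached 1.77 ± 0.19 with the groups apart. Eif1 (chr11:100319885-100322096, plus strand) and Eif1b (chr9:120492232-120495330, plus strand) code for nearly the same protein, and reads that could come from either may have been split or dropped in the counting.

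Of the whole eIF1 and eIF1A group, 20 of 27 pairs were higher (74.1%, against 19.4% of all pairs in Hip) and 0 lower, with a median of 1.05, the largest of any complex with more than 1 gene. Eif1, Eif1b and Eif1ad are under 10 kb, and short genes were called higher more often in general. Of all genes under 10 kb, 2221 of 4493 were higher in Hip excitatory neurons and 1306 of 2528 in Hip interneurons. Eif1a and Eif1ax, which code for the scanning factor eIF1A, were higher in 4 and 2 types, with 0.50 ± 0.14 and 0.39 ± 0.13 in excitatory neurons. Eif1ad, which only shares a domain with eIF1A, was higher in both neuron types.

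Several other members with short genes moved with them. Eif5a, the hypusine-carrying factor that helps ribosomes through difficult peptide bonds, was at 39.5, 48.7 and 44.6 CPM in GF and 18.4, 20.6 and 31.8 in SPF excitatory neurons. The groups were apart and the log2 difference was 0.91 ± 0.21 (adjusted p = 0.00595, edgeR), with calls in every type but OPC (0.76 ± 0.28, adjusted p = 0.0568). Eif6, which keeps the large ribosomal subunit from joining early, was at 8.44, 9.57 and 9.48 CPM in GF and 4.10, 4.39 and 5.59 in SPF excitatory neurons. It was higher in 3 of 5 types, with 0.96 ± 0.18 in excitatory neurons and 1.12 ± 0.28 in oligodendrocytes. Eif3f, a subunit of eIF3, rose in both neuron types, oligodendrocytes (1.07 ± 0.27) and astrocytes (1.11 ± 0.23). In microglia it passed the filter only with the GF libraries, so its difference there (1.14 ± 0.39) is a description.

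For eIF2 and its recharging factor the Hip changes were smaller and upward. Eif2s2, the beta subunit, was at 44.0, 51.0 and 47.0 CPM in GF and 34.4, 34.5 and 37.8 in SPF excitatory neurons, a log2 difference of 0.41 ± 0.09, and it was higher in 5 of 6 types. Eif2s1, the alpha subunit that the stress kinases phosphorylate, was higher in astrocytes (0.96 ± 0.18) and oligodendrocytes (0.77 ± 0.19). In astrocytes it was at 42.2, 48.3 and 42.6 CPM in GF and 21.4, 20.3 and 26.6 in SPF mice. Of eIF2B, 9 of 27 pairs were higher (33.3%, all pairs 19.4%) and 0 lower (median 0.41), and Eif2a and Eif2d, which can deliver tRNA without eIF2, were higher in 4 of 11 pairs (36.4%).

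Of the eIF2 kinases, 0 of 18 pairs were higher and 5 lower in Hip (27.8% lower, median -0.33), where 15.9% of all pairs were lower. The kinase genes are all longer than 10 kb. Of all genes of 10 kb or more, 3637 of 13403 were lower in Hip excitatory neurons. Eif2ak4, which codes for the amino acid sensor GCN2, was at 31.7, 31.2 and 31.7 CPM in GF excitatory neurons, 51.4, 46.6 and 44.6 in SPF and 57.0, 50.3 and 46.7 in CGF mice. GF mice lay below both other groups, with a log2 difference to SPF of -0.59 ± 0.08 (adjusted p = 0.000431, edgeR), and Eif2ak4 also fell in interneurons (-0.38 ± 0.11) and oligodendrocytes (-0.63 ± 0.21). Eif2ak1, the heme-regulated kinase, fell in excitatory neurons (-0.38 ± 0.08) and oligodendrocytes (-0.49 ± 0.19). Eif2ak3, the kinase PERK of the endoplasmic reticulum, passed the test in 0 of 6 types, with -0.30 ± 0.12 in excitatory neurons (adjusted p = 0.0598).

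Of eIF3, 19 of 68 pairs were higher in Hip and 2 lower (27.9% and 2.94%, all pairs 19.4% and 15.9%), with a median of 0.34. Without Eif3f and Eif3m in microglia, which passed the filter only with the GF libraries, 17 were higher. Eif3e fell in excitatory neurons, from 27.0, 24.6 and 24.98 CPM in SPF to 17.96, 17.8 and 16.8 in GF mice, a log2 difference of -0.54 ± 0.08 (adjusted p = 0.000365, edgeR). Eif3a, the largest core subunit, was also slightly lower there (-0.21 ± 0.07). Eif3j2, an intronless gene nearly identical in its coding part to Eif3j1, rose in 3 of 4 types, and reads shared by the pair may have been split.

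Of the cap-binding genes, few passed in Hip. Eif4e, the cap-binding protein, passed in OPC (0.54 ± 0.19), from 65.3, 70.7 and 77.4 CPM in SPF to 89.7, 108 and 113 in GF mice, and Eif4e2, a repressive relative, was higher in OPC as well (1.12 ± 0.36). In excitatory neurons Eif4e was at 79.9, 83.0 and 78.3 CPM in GF and 74.2, 73.3 and 71.5 in SPF mice. The groups did not overlap, like those of 56.8% of all genes there, and the difference of 0.14 ± 0.05 missed the threshold (adjusted p = 0.0538, edgeR). Eif4ebp2, the main brain form of the eIF4E-binding proteins, was at 38.5, 36.3 and 37.4 CPM in GF and 25.9, 24.2 and 25.1 in SPF excitatory neurons. It rose in 5 of 6 types, with 0.58 ± 0.06 in excitatory neurons (adjusted p = 0.000137, edgeR) and 0.52 ± 0.31 in microglia, which did not pass. Eif4ebp1, another of these proteins, could be tested between groups only in excitatory neurons, where it passed in neither region.

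Of the scaffolds, Eif4g3 was at 210.5, 206 and 217 CPM in GF excitatory neurons and 272, 304 and 303 in SPF, which gave -0.47 ± 0.06 (adjusted p = 0.000269, edgeR). It fell in interneurons as well (-0.31 ± 0.09), and with the length and GC trend removed that value was 0.01. Eif4g1 passed in microglia (-0.62 ± 0.21). In excitatory neurons it was at 86.6, 85.6 and 84.5 CPM in GF and 92.2, 90.96 and 101.6 in SPF mice. The groups did not overlap, again like those of 56.8% of all genes, and the difference did not pass (-0.15 ± 0.06, adjusted p = 0.0591, edgeR). Eif4g2, a relative of Eif4g1 without an eIF4E-binding site, passed in 0 of 6 types. Eif4b, a helper of the helicase, was lower in both neuron types and in astrocytes (-0.67 ± 0.18). The helicase gene Eif4a2 was higher in astrocytes (0.48 ± 0.15) and oligodendrocytes (0.44 ± 0.15), and with that trend removed these values were -0.03 and -0.09. Its paralog Eif4a1 was called in microglia (0.93 ± 0.34) although SPF mice (35.4, 79.6 and 222 CPM) overlapped with GF mice (207, 152 and 181). Eif4h passed in 0 of 6 types.

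Eif5, which triggers GTP hydrolysis on eIF2, was lower in both neuron types, at 29.6, 29.3 and 29.7 CPM in GF and 35.4, 35.5 and 41.9 in SPF excitatory neurons (-0.35 ± 0.09). Eif5b, the GTPase that joins the ribosomal subunits, did not pass in any Hip type, and in excitatory neurons it was at 79.3, 81.8 and 80.01 CPM in GF and 75.0, 75.8 and 80.2 in SPF mice. Its largest Hip difference was 0.44 ± 0.20 in microglia (adjusted p = 0.107, edgeR).

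Of 63 named calls between GF and SPF mice in Hip, 24 lost the call without at least 1 mouse, and none changed direction. They were Eif2b1, Eif2b5, Eif3a and Eif3f in excitatory neurons, Eif2ak4, Eif2b5, Eif4b and Eif5 in interneurons, Eif3j2, Eif4a2 and Eif4ebp2 in astrocytes, and Eif2ak1, Eif2ak4, Eif2s2, Eif3j2, Eif4a2 and Eif4ebp2 in oligodendrocytes. In OPC they were Eif4e, Eif4e2 and Eif4ebp2, and in microglia Eif3f, Eif4a1, Eif4g1 and Eif5a. Eif2b5 in excitatory neurons lost it without each of 8 mice, with log2 differences of 0.17 to 0.33. Eif4a1 in microglia ranged from 0.42 to 1.62 and Eif2ak4 in oligodendrocytes from -0.45 to -0.94 over these omissions.

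Gene length went along with the Hip change. Over the 49 members tested in Hip excitatory neurons the Spearman correlation between length on the genome and log2 difference was -0.72, and over 17896 genes it was -0.54. The genes share the libraries, so these are descriptions across genes. The 15 members under 10 kb had a median of 0.70 and the 34 longer members 0.09, against 0.60 and -0.09 for all genes split in the same way. Under 10 kb, 11 of 15 members and 2221 of 4493 genes were called higher in GF mice. Among longer genes, 7 of 34 members and 3637 of 13403 genes were called lower. Eif1 spans 2212 bases and Eif5a 5245, while Eif2ak4 spans 86617 and Eif4g3 215487. In PFC the correlation over members was 0.16 in excitatory neurons and 0.10 in interneurons, and negative in the glia, at -0.16 in astrocytes, -0.25 in oligodendrocytes, -0.42 in OPC and -0.80 over the 11 members tested in microglia. Over all genes it was 0.01 in both neuron types and between -0.21 and 0.02 in the glia. Members under 10 kb had PFC medians of 0.31 to 0.61 in the 4 glial types, and longer members -0.34 to -0.85. The part of gene length in the change of single members was not tested beyond taking out the trend, which gave the counts above.

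**Figure D2:**
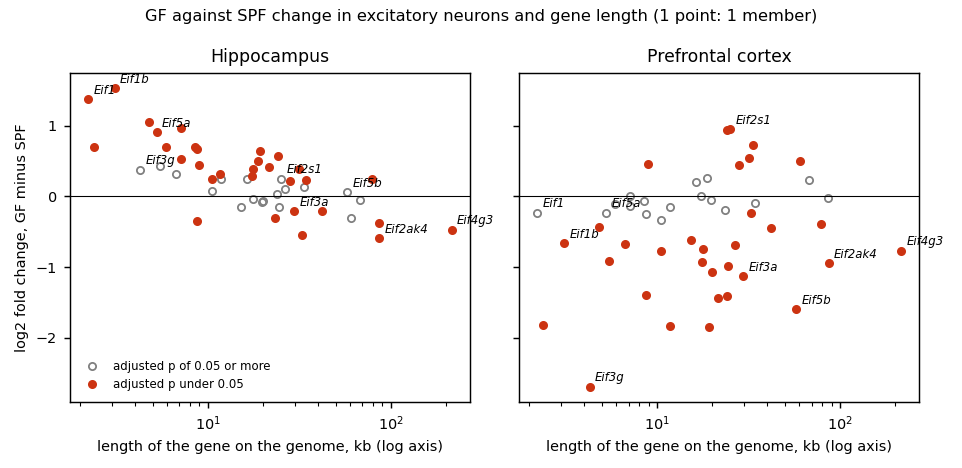
Log2 difference between GF and SPF mice in excitatory neurons (vertical axis) against gene length in kb (horizontal axis, log scale), 1 point per member, filled where the adjusted p was under 0.05, for Hip on the left and PFC on the right. In Hip the short genes Eif1b and Eif1 are highest and the longer genes Eif2ak4, Eif3e and Eif4g3 lowest, while in PFC the lowest point is the short gene Eif3g.

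In PFC the members moved mostly down in GF mice, led by the subunit-joining GTPase Eif5b, the eIF3 scaffold and Eif4g1, while a few rose. Of 205 pairs tested, 28 were higher and 82 lower in GF than in SPF mice (edgeR), or 13.7% and 40%, where 25.2% and 24.7% of all pairs of gene and type were called. The members' median was -0.33 in excitatory neurons, -0.35 in interneurons and between -0.03 (astrocytes) and -0.57 (microglia) in glia, and that of all genes lay between 0.01 and 0.03. By type, 7 members were higher and 25 lower of 49 in excitatory neurons (all genes 31.9% and 31%), and 8 were higher and 23 lower of 48 in interneurons (25.7% and 24.2%). In astrocytes 6 were higher and 12 lower of 38 (22.5% and 22.7%), in oligodendrocytes 4 and 9 of 30 (19.9% and 20.3%) and in OPC 1 and 9 of 29 (16.8% and 17%). Group and depth per library go together in PFC and cannot be told apart in full. With the sums of all PFC libraries thinned to their lowest mean depth, 23 pairs were higher and 75 lower of 192 (12% and 39.1%, all genes 23.4% and 22.9%). Thinned sums keep the same nuclei and the same assignment to types, so they cannot tell group from depth. With the length and GC trend removed, 15 were higher and 99 lower (7.32% and 48.3%), where all genes shifted toward lower calls as well (21.7% and 27.5%). With total UMIs the median of all genes was -0.14 in excitatory neurons (25.9% higher and 37.1% lower), where 6 members were higher and 30 lower, and 0.19 in microglia (26.1% and 15.9%), where 2 were higher and 3 lower. Some called pairs passed the filter through 1 side, the one where the gene was high. Eif2s1 in astrocytes and Eif1 in microglia passed it only with the GF libraries, and 7 lower pairs had no GF library over the minimum (Eif3g and Eif5a2 in interneurons, Eif3l in astrocytes, Eif2ak4, Eif2b5 and Eif3b in oligodendrocytes and Eif3a in microglia). Without these, 26 higher and 75 lower pairs were left.

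Eif5b was lower in GF mice in all 6 PFC types. In excitatory neurons it was at 76.0, 75.7 and 79.2 CPM in GF mice, 234, 219 and 243 in SPF mice and 198, 223 and 265 in CGF mice. GF mice lay below every other mouse. GF and SPF mice were apart for 70.2% of all genes in PFC excitatory neurons and for 45.8% to 60.5% in the other PFC types. The log2 difference between GF and SPF was -1.59 ± 0.11 (adjusted p = 1.26e-07, edgeR), and it ranged from -1.22 ± 0.29 in microglia to -1.81 ± 0.20 in OPC. In OPC Eif5b was at 90.9, 103 and 113 CPM in GF and 403, 303 and 373 in SPF mice. The gene lies at chr1:37998010-38055579 on the plus strand and overlaps Rev1 on the other strand. Eif5, the activator of GTP hydrolysis on eIF2, was at 31.2, 34.0 and 34.8 CPM in GF and 86.6, 87.8 and 89.3 in SPF excitatory neurons. Eif5 fell in 4 of 6 types, with -1.40 ± 0.08 in excitatory neurons and -1.23 ± 0.15 in astrocytes, and did not pass in oligodendrocytes (-0.50 ± 0.24) and microglia (-0.54 ± 0.36).

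Eif5a2, a paralog of Eif5a, was lower in excitatory neurons (-0.93 ± 0.24), and in interneurons, where no GF library was over the minimum, its difference was -1.39 ± 0.35. Eif5a itself did not pass in PFC excitatory neurons, at 37.5, 33.5 and 36.4 CPM in GF and 38.8, 48.8 and 38.2 in SPF mice, and was higher in astrocytes (0.91 ± 0.25). Of the whole group of eIF5, eIF5A and eIF5B, 1 pair was higher and 12 lower of 19 (5.26% and 63.2%, all pairs 25.2% and 24.7%), with a median of -1.11. The lower pairs include Eif5b in every PFC type, and the higher pair was Eif5a in astrocytes. Without Eif5a2 in interneurons, 11 lower pairs were left.

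The eIF3 scaffold carried the largest number of lower pairs in PFC, 29 of 54, with 3 higher and a median of -0.81 (53.7% lower and 5.56% higher, all pairs 24.7% and 25.2%). Of the 29, 25 were left without the pairs that had no GF library over the filter's minimum. Eif3a was at 39.5, 41.5 and 45.1 CPM in GF and 97.0, 89.9 and 89.7 in SPF excitatory neurons, and it fell in both neuron types, astrocytes, oligodendrocytes and OPC, from -0.92 ± 0.13 in interneurons to -1.13 ± 0.10 in excitatory neurons. In microglia no GF library was over the minimum, and its difference there (-1.32 ± 0.28) is a description. Eif3c, another core subunit, fell in 5 of 6 types, with -1.07 ± 0.20 in excitatory neurons. Eif3g, an RNA-binding subunit, was at 1.52, 1.70 and 1.65 CPM in GF and 14.1, 8.62 and 8.93 in SPF excitatory neurons. Its log2 difference there was -2.69 ± 0.24 (adjusted p = 1.27e-06, edgeR). In interneurons, where no GF library was over the minimum, the difference of -1.97 ± 0.43 is a description. Eif3d, the subunit with cap-binding activity of its own, was at 6.59, 6.21 and 7.93 CPM in GF and 27.2, 26.5 and 20.1 in SPF excitatory neurons (-1.83 ± 0.19). Eif3j2 fell in both neuron types and in astrocytes, with -1.82 ± 0.14 in excitatory neurons. Its near copy Eif3j1 rose in the neuron types, by 0.44 ± 0.09 and 0.50 ± 0.14. The remaining call upward was Eif3f in astrocytes (1.13 ± 0.33), with -0.06 ± 0.16 in excitatory neurons.

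The eIF4G scaffolds fell in 14 of 17 pairs (82.4%, all pairs 24.7%), with 0 higher and a median of -0.73. Eif4g1 was at 90.1, 90.9 and 91.0 CPM in GF and 178, 174 and 188 in SPF excitatory neurons, and it fell in all 6 types, from -0.73 ± 0.21 in OPC to -1.08 ± 0.27 in microglia. Eif4g3 fell in all 6 types as well (-0.47 ± 0.16 in oligodendrocytes to -0.90 ± 0.16 in OPC). Eif4g2 fell in the neuron types (-0.62 ± 0.12 in excitatory neurons and -0.48 ± 0.12 in interneurons) and did not pass in the glial types tested.

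The subunits of eIF2 went opposite ways in PFC. Eif2s2 was at 44.7, 43.0 and 41.5 CPM in GF and 124, 115 and 113 in SPF excitatory neurons, a log2 difference of -1.44 ± 0.14 (adjusted p = 2.56e-06, edgeR), and it fell in 5 of 6 types. Eif2s1 was at 22.9, 21.4 and 22.9 CPM in GF and 11.3, 12.3 and 11.2 in SPF excitatory neurons. It rose by 0.95 ± 0.12 in excitatory neurons and 1.21 ± 0.28 in interneurons. In astrocytes it had 49, 53 and 61 UMIs in GF and 4 in each SPF mouse, and it passed the filter there only with the GF libraries. The astrocyte sums held 1331385 to 1799356 UMIs in GF and 377173 to 534096 in SPF mice, so these raw counts were not compared. For eIF2B, Eif2b5, the catalytic subunit, fell in both neuron types (-0.77 ± 0.14 in excitatory neurons) and in OPC, where the groups overlapped, and Eif2b1, a regulatory subunit, rose in both neuron types (0.45 ± 0.14 and 0.91 ± 0.32). Of the kinases Eif2ak4 fell in both neuron types, astrocytes and OPC, most in OPC (-1.37 ± 0.34). In oligodendrocytes no GF library was over the minimum for Eif2ak4 and Eif2b5, and their differences of -1.32 and -1.05 are descriptions, while Eif2ak3 rose in excitatory neurons (0.50 ± 0.10).

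Eif4e rose in 4 of 5 PFC types. It was at 90.6, 98.9 and 98.5 CPM in GF and 52.9, 60.0 and 60.5 in SPF excitatory neurons, a log2 difference of 0.73 ± 0.10 (adjusted p = 3.93e-05, edgeR). Its binding protein Eif4ebp2 rose in both neuron types, at 38.7, 33.5 and 33.6 CPM in GF and 18.8, 18.6 and 18.1 in SPF excitatory neurons (0.93 ± 0.10). Eif4e2 fell in both neuron types and in astrocytes, with -0.68 ± 0.10 in excitatory neurons.

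Eif4a2 fell in the neurons and rose in the glia of PFC. It was at 69.4, 67.6 and 76.7 CPM in GF and 101, 123 and 115 in SPF excitatory neurons. In astrocytes it was at 179.7, 170.4 and 183 CPM in GF and 95.7, 101 and 96.0 in SPF mice. The log2 differences were -0.67 ± 0.11 in excitatory neurons, -0.60 ± 0.19 in interneurons and positive in all 4 glial types, from 0.76 ± 0.20 in oligodendrocytes to 0.94 ± 0.29 in microglia. Eif1 rose in astrocytes (1.47 ± 0.20) and oligodendrocytes (0.93 ± 0.20) and did not pass in excitatory neurons (-0.23 ± 0.12), where it was at 88.7, 67.5 and 84.3 CPM in GF and 87.4, 100.2 and 94.5 in SPF mice. Eif1b fell in excitatory neurons (-0.66 ± 0.12) and interneurons (-0.65 ± 0.16) and passed in none of the 4 glial types. The difference between types in these changes was not tested.

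Of 90 named calls in PFC, 22 lost the call without at least 1 mouse, again with no change of direction. They were Eif2b1 and Eif3e in excitatory neurons, Eif2b1, Eif2b5, Eif4a1, Eif4a2 and Eif5a2 in interneurons, Eif4e2 in astrocytes, Eif2b5, Eif2s2, Eif4a2, Eif4e, Eif4g3 and Eif4h in oligodendrocytes, Eif2b5, Eif2s2, Eif3c, Eif4a2, Eif4g1 and Eif5 in OPC, and Eif4a2 and Eif4g3 in microglia. Eif2b5 in OPC ranged from -0.73 to -1.83 over these omissions and Eif2b1 in interneurons from 0.62 to 1.29.

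**Figure D3:**
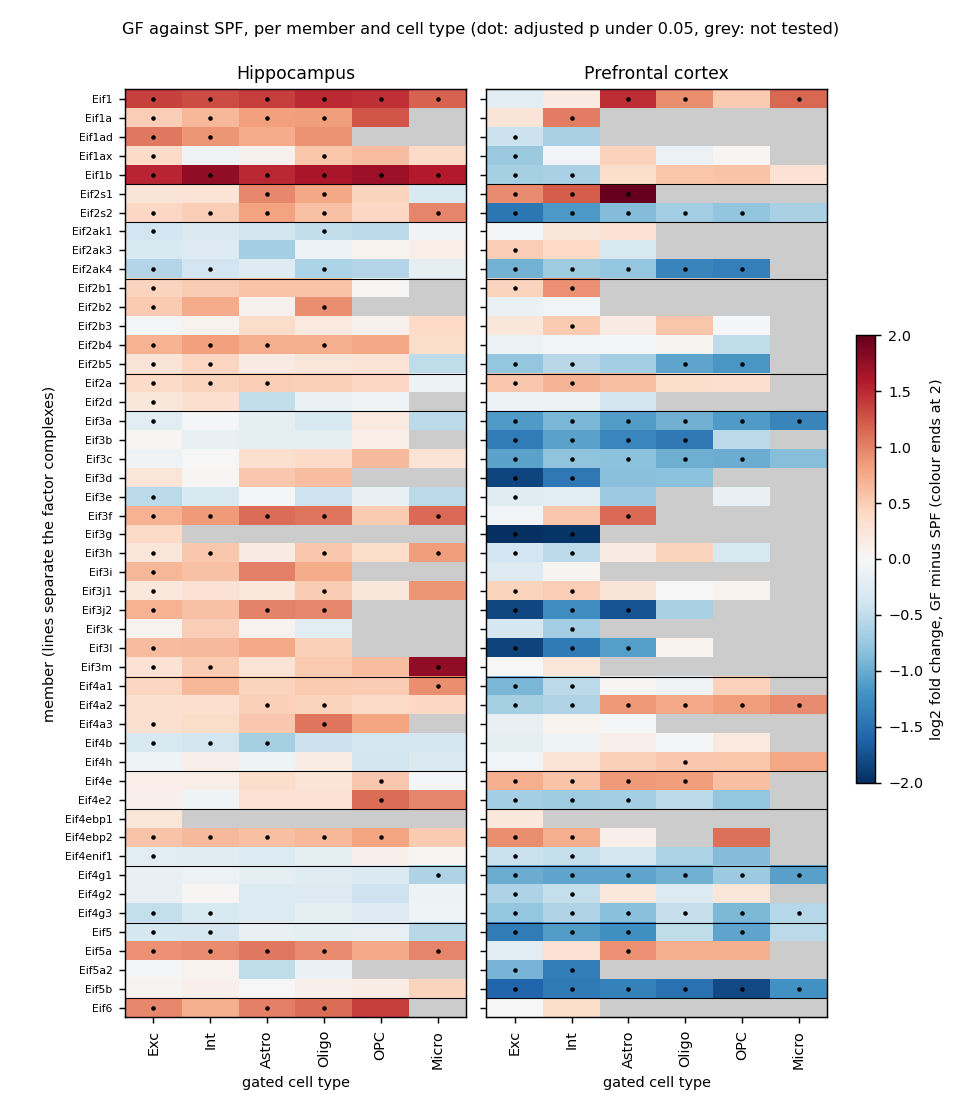
Log2 difference between GF and SPF mice (colour, ending at 2 in each direction) for the 49 members tested (rows, grouped by factor complex) in 6 gated types (columns), Hip on the left and PFC on the right, with a dot where the adjusted p was under 0.05 and grey where the gene was not tested. The eIF1 rows are red across Hip, and the Eif3a, Eif4g1 and Eif5b rows are blue across PFC.

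Microglia of PFC gave values for 11 members, and their nuclei were shallow, with medians of 1522 to 1726.5 UMIs per nucleus in GF mice and 634 to 819 in SPF and CGF mice. In these cells 2 members were higher (Eif1 and Eif4a2) and 4 lower (Eif3a, Eif4g1, Eif4g3 and Eif5b), where 19.6% and 20.3% of all genes were called. Eif1 was at 493, 391 and 502 CPM in GF mice, 157, 159.6 and 282 in SPF mice and 194, 279 and 113 in CGF mice, from 142, 105 and 181 UMIs in GF and 5, 6 and 14 in SPF. GF mice lay above SPF and CGF mice, but Eif1 passed the filter only with the GF libraries, so its difference (1.15 ± 0.30) is a description. Eif3a likewise had no GF library over the minimum. Eif1b was at 257, 197 and 219 CPM in GF and 31.5, 186 and 282 in SPF mice, and Eif4h, a cofactor of eIF4A, was at 194, 183 and 189 CPM in GF and 94.4, 186 and 60.5 in SPF mice. Both overlapped and neither passed (0.29 ± 0.37 and 0.78 ± 0.44, adjusted p = 0.57 and 0.16). Eif4e and Eif5a fell under the filter, with 45, 44 and 48 UMIs of Eif4e in GF and 3, 4 and 4 in SPF mice, and 75, 42 and 78 UMIs of Eif5a in GF and 0, 4 and 9 in SPF mice. These UMIs come from libraries of unequal depth and were not compared.

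**Figure D4:**
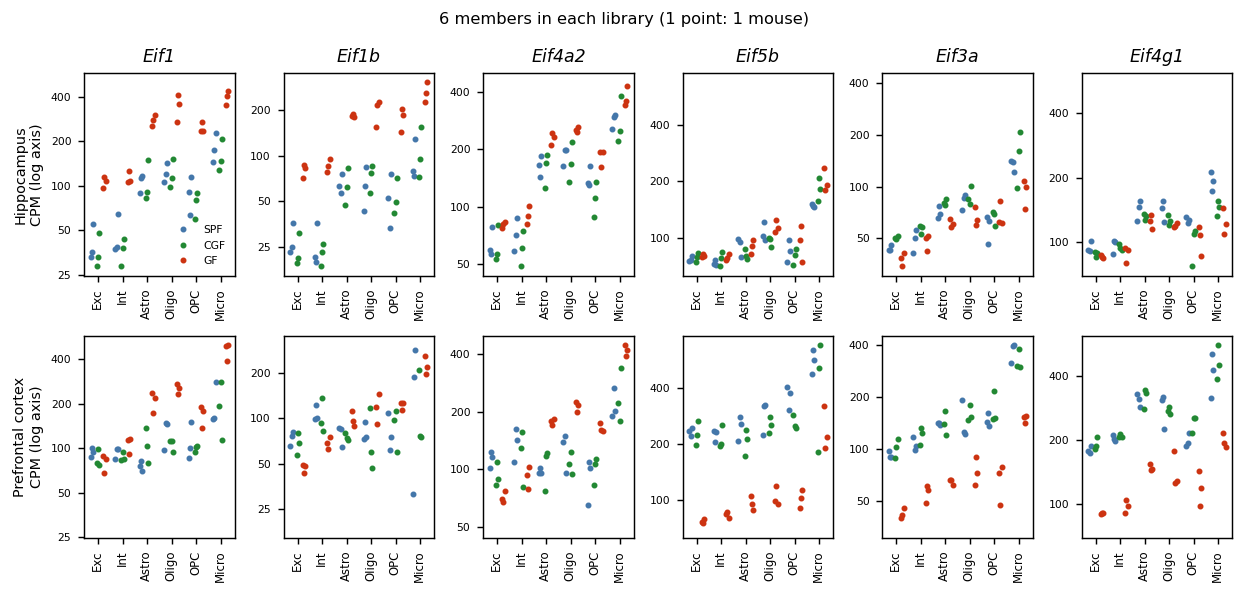
CPM of 6 members (vertical axis, log scale, 1 panel per gene) in each gated type (horizontal axis), 1 point per mouse coloured by group, with Hip above and PFC below. GF points of Eif1 and Eif1b stand above the other groups throughout Hip, and GF points of Eif5b, Eif3a and Eif4g1 stand below SPF points in every PFC type.

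No member passed between colonized and SPF mice in edgeR's fits of all 9 libraries of a region. Between CGF and SPF mice 0 of 262 pairs in Hip and 0 of 205 in PFC passed edgeR's test, where 0.182% and 0.113% of all pairs in Hip and 0.0982% in each direction in PFC were called. At an unadjusted p under 0.05 the counts were 18 and 19, and DESeq2 called 1 pair in each region. Without CGF mouse 18, edgeR called 2 pairs in PFC. The shares of all genes at the unadjusted p, with DESeq2 and without that mouse are not given, so these counts stand without a general rate. The smallest adjusted p was that of Eif4h in Hip excitatory neurons (-0.41, adjusted p = 0.078, edgeR), at 34.8, 39.6 and 38.2 CPM in CGF and 47.5, 48.4 and 53.95 in SPF mice. A p above the threshold with 3 mice per group does not show that the groups are equal.

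Against CGF mice, GF mice showed 93 pairs higher and 17 lower of 262 in Hip (all genes 20.1% and 16.8%) and 30 higher and 80 lower of 205 in PFC (25.4% and 24.5%). With the length and GC trend removed 53 Hip pairs were higher, with total UMIs 10 were lower, and with thinned libraries 27 PFC pairs were higher and 76 lower of 192. The shares of all genes under these settings are not given for CGF mice, so these counts cannot be set against a general rate. The GF libraries are shared with the comparison to SPF mice. The filter is shared too, so pairs that passed it only with the GF libraries, or with no GF library over the minimum, were also tested here. The counts against CGF mice were not redone without these pairs. Eif1b in Hip excitatory neurons differed by 1.76 ± 0.20 from CGF and 1.53 ± 0.20 from SPF mice. Eif6 was higher than in CGF mice in all 5 Hip types tested, but in OPC it passed the filter only with the GF libraries, so its difference there is a description. In PFC excitatory neurons Eif5b differed by -1.57 ± 0.11 from CGF and -1.59 ± 0.11 from SPF mice, and Eif2s1 by 0.77 ± 0.12 and 0.95 ± 0.12. Eif5b in PFC microglia, called against SPF mice, was not called against CGF mice (-0.67 ± 0.31), where CGF mice ranged from 180.0 to 677 CPM. In Hip, Eif4h was higher in GF than in CGF mice in excitatory neurons (0.33 ± 0.09), interneurons (0.42 ± 0.13) and oligodendrocytes (0.34 ± 0.13), and was called in none of these against SPF mice.

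The change between GF and SPF mice differed between Hip and PFC for many members. In a fit of all 18 libraries, the difference of the 2 changes (Hip minus PFC) was higher for 82 of 273 pairs and lower for 12, where 13.6% and 15.9% of all pairs were called. With total UMIs the shares of all pairs turned to 17.1% higher and 11.8% lower, and in excitatory neurons the median of all genes went from -0.11 to 0.255, with 36 members higher and 2 lower. The eIF3 genes gave 29 of 75 pairs higher and 2 lower, the group of eIF5, eIF5A and eIF5B 12 of 22 and 0, eIF4G 8 of 18 and 0, and eIF1 with eIF1A 10 of 29 and 0. By type, 28 members were higher and 8 lower of 49 in excitatory neurons (all genes 23.2% and 29.4%), 23 and 3 of 48 in interneurons (17.9% and 20.4%) and 13 and 0 of 48 in astrocytes (11% and 10.4%). In oligodendrocytes 6 and 0 of 48 were called (7.48% and 9.18%), in OPC 9 and 0 of 43 (6.99% and 7.31%) and in microglia 3 and 1 of 37 (3.38% and 3.59%). In excitatory neurons Eif3j2 differed by 2.47 ± 0.22, Eif1b by 2.14 ± 0.24, Eif2s2 by 1.80 ± 0.18 and Eif5b by 1.60 ± 0.12 (adjusted p = 1.21e-08 for Eif5b, edgeR). The Hip change of Eif5b there was 0.06 ± 0.06 and its PFC change -1.59 ± 0.11. Eif1b rose in Hip and fell in PFC in both neuron types, and passed in no PFC glial type. In astrocytes, where Eif1 rose in both regions, the difference for Eif1 was -0.04 ± 0.28.

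Eif5b and Eif2s2 passed this test in all 6 types. Eif4e2, Eif3c, Eif3a and Eif4g1 passed it in at least 4, with 0.73 ± 0.14, 0.95 ± 0.26, 0.87 ± 0.13 and 0.79 ± 0.09 in excitatory neurons. Among the members that went the other way were Eif2s1 (-0.75 ± 0.15) and Eif4e (-0.65 ± 0.11) in excitatory neurons, whose GF values were above SPF values by more in PFC than in Hip. With total UMIs these differences were -0.38 ± 0.16 and -0.27 ± 0.09, and that of Eif2s1 did not pass (adjusted p = 0.064, edgeR). The regions also differ in depth between groups, as given above, and with thinned libraries 78 of 253 pairs were called in place of 94 of 273 (all genes 13.4% higher and 15.3% lower).

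Levels of the members in Hip and PFC were also compared within a group. In SPF and CGF mice the Hip libraries were deeper than the PFC libraries, so region and depth go together there. In SPF mice 22 pairs were higher and 94 lower in Hip than in PFC of 273 (all pairs 21.9% and 20.2%), and in CGF mice 18 and 104 (22.7% and 21.9%). These counts come from the fit of both regions and include members that did not pass the filter in PFC alone. Thinning was done within each region and left a depth difference between the regions, whose part was not tested. With libraries thinned in this way 115 of 253 pairs were called in SPF mice in place of 116. In SPF excitatory neurons Eif5b was lower in Hip by -1.42 ± 0.09 on the log2 scale, Eif3g by -2.87 ± 0.25, Eif2s2 by -1.55 ± 0.13 and Eif5 by -1.06 ± 0.08. In GF mice, whose libraries of both regions were deep, 7 pairs were higher and 2 lower in Hip (all pairs 5.18% and 5.34%). With the mouse as a block 18 pairs were called in GF mice in place of 9, and the share of all genes under the block is not given. In GF excitatory neurons Eif5b differed by 0.18 ± 0.09 (adjusted p = 0.135, edgeR) and Eif3a, Eif4g1 and Eif5 by -0.03, 0.03 and -0.06.

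The 9 calls in GF mice were Eif1 in OPC (0.73 ± 0.17) and excitatory neurons (0.53 ± 0.18), Eif1b in astrocytes (0.97 ± 0.15), excitatory neurons (0.90 ± 0.16) and oligodendrocytes (0.84 ± 0.21), Eif5a in astrocytes (0.65 ± 0.19) and Eif2ak4 in excitatory neurons (0.45 ± 0.09), all higher in Hip, and Eif3e (-0.26 ± 0.08) and Eif4ebp1 (-1.43 ± 0.31) in excitatory neurons, both lower. Eif4ebp1 had the same direction in SPF mice (-1.42 ± 0.34).

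Cell types differed in their levels of many members within each library, but less often than over all genes. Each type was set against the mean of the other 5 with the library as a block, and 148 of 282 pairs were called in Hip and 101 of 264 in PFC, where 65.1% and 56.2% of all pairs were called. In both regions the member share lay below that of all pairs. With SPF libraries only, 87 of 282 pairs were called in Hip and 30 of 210 in PFC, and without the library block 104 and 51. The shares of all genes under these settings are not given, so whether the drop is particular to the members is not known. In Hip, 26 of 47 members were lower and 9 higher in excitatory neurons (all genes 40.9% and 39.2%), 29 were lower and 8 higher in interneurons (40% and 35.9%), 26 were higher and 5 lower in oligodendrocytes (32.1% and 34.3%), and 19 were higher and 1 lower in microglia (28.1% and 34.1%). Hip astrocytes had 10 members higher and 10 lower (33% and 31.6%) and OPC 1 and 4 (20.8% and 20.6%). In PFC, 27 of 44 were lower and 2 higher in excitatory neurons (40.4% and 33%), 22 were lower and 3 higher in interneurons (35.7% and 30.2%) and 20 were higher and 1 lower in microglia (26.8% and 29.7%). PFC oligodendrocytes had 11 higher and 2 lower (25.4% and 25.2%), astrocytes 7 and 3 (28% and 27%) and OPC 1 and 2 (18.8% and 17.3%). Depth per nucleus went with this order, with a library's median at 7077 to 11382 UMIs in Hip excitatory neurons and 1564 to 2357 in Hip microglia, and its part was not tested. Excitatory markers in the other types, given above, were likewise not tested against these differences.

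Eif5 had the largest rise of any member in astrocytes, in both regions. Over the 9 Hip libraries its mean was 101 CPM ± 15.0 (SD) in astrocytes and 41.7 to 71.8 in the other types, a log2 difference of 0.94 ± 0.07, and in PFC the difference was 0.88 ± 0.08. The same gene fell in GF astrocytes of PFC, from 211, 199 and 196 CPM in SPF to 88.4, 86.4 and 83.4 in GF mice. Eif4h was higher in oligodendrocytes than in the mean of the other types in both regions (0.72 ± 0.06 and 0.79 ± 0.10). Eif4a2 (0.80 ± 0.06) and Eif6 were higher in Hip microglia, and Eif4ebp2 in PFC microglia (0.90 ± 0.17). Eif3j2 was lower in excitatory neurons by -1.01 in Hip and -0.78 in PFC, and Eif1 by -0.89 in Hip.

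The eIF2 kinases differed between types as well. Eif2ak4 was higher in interneurons than in the mean of the other types, by 0.69 ± 0.06 in Hip and 0.77 ± 0.08 in PFC, and Eif2ak3 was lower in astrocytes, by -0.58 and -0.78. Eif2d was higher in excitatory neurons (0.53 and 0.67) and lower in microglia (-0.44 and -0.68). Among the eIF4G genes Eif4g2 was lower in excitatory neurons (-0.77 and -0.60) and Eif4g1 was higher in astrocytes (0.21 and 0.48).

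**Figure D5:**
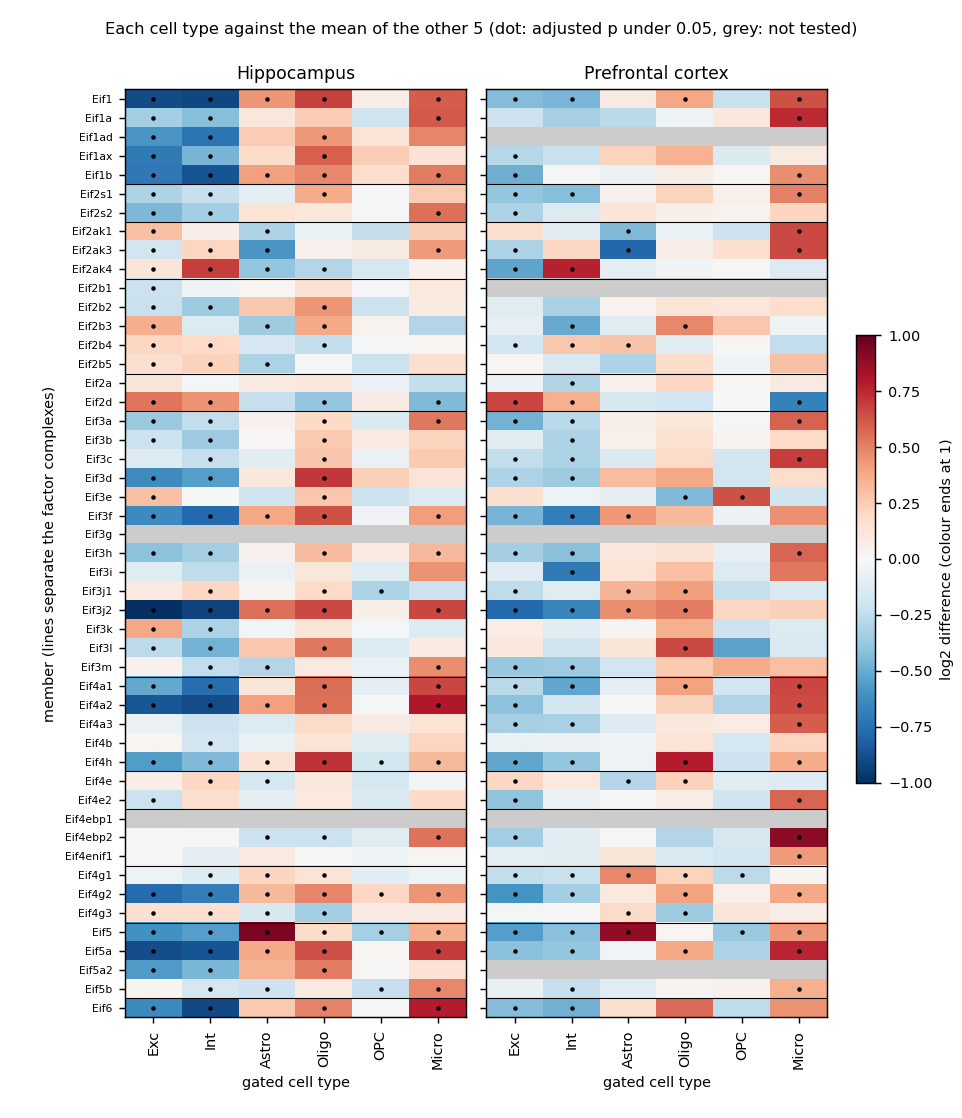
Log2 difference of each gated type from the mean of the other 5 (colour, ending at 1 in each direction) for each member (rows, grouped by factor complex) in Hip and PFC, over 9 libraries per region, with a dot where the adjusted p was under 0.05 and grey where the gene was not tested. Neuron columns are mostly blue, oligodendrocyte and microglia columns mostly red, and Eif5 is darkest in astrocytes.

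Other genes of translation were read from the same fits. Beside them stand the shares of all pairs given above, 19.4% higher and 15.9% lower in Hip and 25.2% and 24.7% in PFC. Elongation factors, which carry the ribosome along the mRNA, had 18 of 46 pairs higher and 1 lower in Hip (39.1% and 2.17%, median 0.40) and 4 higher and 16 lower of 38 in PFC (10.5% and 42.1%, median -0.31). Genes of the integrated stress response were higher in 12 and lower in 4 of 40 pairs in Hip (30% and 10%) and higher in 1 and lower in 19 of 32 in PFC (3.12% and 59.4%, median -0.70). Atf4, the transcription factor translated when eIF2 is phosphorylated, was higher in Hip excitatory neurons (0.69 ± 0.10) and fell in PFC excitatory neurons (-2.03 ± 0.19), where its mean was 22.0 CPM in GF and 89.5 in SPF mice. Its target Ddit3 was higher in 4 of 4 Hip types tested, with 1.19 ± 0.18 in excitatory neurons, and passed in 0 of 3 PFC types.

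Eef2, which moves the ribosome by a codon, passed in 0 of 6 Hip types and fell in 4 PFC types, most in excitatory neurons (-1.70 ± 0.13). Eef1a1, which delivers tRNA, rose in 3 glial types in each region, with 1.13 ± 0.27 in PFC microglia. Termination and recycling factors were higher in 1 and lower in 2 of 23 pairs in Hip (4.35% and 8.7%) and higher in 5 and lower in 1 of 18 in PFC (27.8% and 5.56%). Initiation cofactors whose symbols do not begin with Eif were higher in 17 and lower in 6 of 64 pairs in Hip (26.6% and 9.38%) and higher in 11 and lower in 7 of 51 in PFC (21.6% and 13.7%, median 0.35). Genes of mTORC1 and MNK signaling were higher in 12 and lower in 9 of 56 pairs in Hip, near the shares of all pairs (21.4% and 16.1%), and higher in 5 and lower in 16 of 46 in PFC (10.9% and 34.8%). Between CGF and SPF mice 0 pairs of these 5 lists were called by edgeR in either region.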

How the data were processed

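Nuclei of Hip and PFC of 9 mice were sequenced with the droplet-based 10x method, 1 library per mouse and region. The deposited files hold raw UMI counts, made by the authors with Cell Ranger (3.1.0 in the matrix header) on mm10 with Ensembl release 92, and the submitters' processing notes name CASAVA 1.8. The counts were not normalized, and whether intronic reads were counted is not given in the sources used here.

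Nuclei with at least 200 genes and at most 10% mitochondrial UMIs were kept. No doublet caller was run, and nuclei with a second marker score over 0.5 of the best were left unassigned (24750 in Hip, 17168 in PFC), as were nuclei with a best score under 0.1. Scores were means of log counts scaled to 10000 per nucleus, capped at the 95th percentile of each marker. Of gated nuclei in named clusters, 95.5% to 99.8% had the same name from clustering. Libraries shared 6 to 29 cell barcodes per pair (median 16, 153 pairs).

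UMIs were summed per library and type and tested with edgeR 4.0.16 in R 4.3.3 (filterByExpr with a minimum count of 10, TMM, glmQLFit, glmQLFTest, Benjamini-Hochberg over all genes of a fit, threshold 0.05), with the 9 libraries of a region, all 18 libraries for regions, and a library block between types. CPM are TMM-scaled, summed levels are not. Thinning drew UMIs at random from the sums, down to the lowest mean UMIs per nucleus among the libraries of the region. SE is the absolute log2 difference divided by the square root of F. Litters are not named, and housing was shared within a group (CGF mice in 1 isolator with SPF mice, GF mice in isolators, SPF mice raised under other conditions), so p-values measure the spread between these mice only. The mouse number pairs the regions of an animal. In the study's own library table GF mice 6 and 7 are exchanged in both regions against the deposited labels, which were used here, so which of the 2 animals carries which number is not settled, while groups and pairing are the same either way. Same-mouse deviations correlated by medians of 0.039 to 0.241 over types and those of other mice by -0.167 to -0.0225. Deviations were taken from the mean of the group, so the negative values of other mice follow from this centring and are no separate evidence of pairing.

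Members and lists were chosen with earlier results of these data known. Genes named were Eif1, Eif1b, Eif4e, Eif4h and Eif5a in PFC microglia, per region the 5 largest rises and 5 largest falls between GF and SPF by mean log2 difference over types, among members called in at least 1, the 5 largest called type differences per region, members with a called region difference in at least 4 types (at most 10), scaffold or catalytic genes of each complex, members never tested, genes of the other lists called in at least 10 of 12 fits (none was), and Eef1a1, Eef2, Atf4 and Ddit3. Other members (Eif1a, Eif1ax, Eif1ad, Eif2a, Eif2d, Eif2ak3, Eif3j1, Eif3m) were named after their values were seen. The 5 other lists held elongation factors, termination and recycling factors, initiation cofactors, mTORC1 and MNK signaling, and the integrated stress response. Gene positions, lengths and GC content came from GENCODE vM21 (99.6% of genes).

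Alternatives were DESeq2 1.42.0, RLE factors, total UMIs, no filter, thinning, a stricter gate (0.35), clusters (scanpy 1.11.5, Leiden, Python 3.11.15), at least 500 genes per nucleus, libraries of 2 groups only, library size without 7 abundant and mitochondrial genes, gene length and GC trend removed, a block, SPF libraries only, and each mouse left out. On simulated counts with 200 changed genes, edgeR found 94% of 2-fold and 100% of 4-fold changes between GF and SPF in Hip excitatory neurons (17859 genes, 2 unchanged genes called), 68% and 88% in PFC microglia (2094 genes), and 37% and 94% in the region difference of astrocytes (12144 genes). The changed genes were drawn from genes with higher counts, as many raised as lowered, and every gene had the same dispersion. The rates were therefore not measured for genes with few UMIs or for a broad shift.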

Additional observations from a re-analysis of the deposited data

Results flagged for a closer look

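The GF minus SPF change differed between Hip and PFC by a test of the difference itself (the interaction term of edgeR's fit of all 18 libraries, adjusted p under 0.05) for 36 of 49 members in excitatory neurons, 26 of 48 in interneurons, 13 of 48 in astrocytes, 9 of 43 in OPC, 6 of 48 in oligodendrocytes and 4 of 37 in microglia. Over all genes, 23.2% were higher and 29.4% lower in excitatory neurons, 17.9% and 20.4% in interneurons, 11% and 10.4% in astrocytes, 6.99% and 7.31% in OPC, 7.48% and 9.18% in oligodendrocytes and 3.38% and 3.59% in microglia, so that the oligodendrocyte count lay below the general rate. In excitatory neurons the difference of the log2 changes (Hip minus PFC) was 2.465 for Eif3j2, 2.144 for Eif1b, 1.801 for Eif2s2, 1.601 for Eif5b, 0.9485 for Eif3c, 0.8744 for Eif3a, 0.7854 for Eif4g1 and 0.7341 for Eif4e2. Over all genes the same term had a median of -0.11 in excitatory neurons, and 0.255 with total UMIs in place of TMM factors. Depth differed between groups in PFC, and with thinned libraries 78 of 253 pairs were called in place of 94 of 273. Mitochondrial UMIs moved with the groups, and their part was not tested. The filter of this fit ran over both regions, so that some members entered through Hip and did not pass it in PFC alone.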

How the results depend on the processing

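Counts of pairs called were recomputed under each alternative. With the trend on gene length and GC content removed, the pairs higher in GF than in SPF mice went from 79 to 34 in Hip and from 28 to 15 in PFC, and those higher than in CGF mice in Hip from 93 to 53. With total UMIs in place of TMM, the Hip pairs lower in GF mice went from 16 to 8 against SPF and from 17 to 10 against CGF mice. Between CGF and SPF mice DESeq2 called 1 pair in each region, and edgeR 0 with all mice. Between Hip and PFC in GF mice 9 calls became 17 with total UMIs, 17 with cluster names and 18 with the mouse as a block. Against the mean of the other types, the calls went from 148 to 87 in Hip and from 101 to 30 in PFC with SPF libraries only, where fewer libraries entered. The causes of these moves, including the drop with SPF libraries only, were not tested. For comparisons with CGF mice, between regions in GF mice and between types, the shares of all genes under other settings are not given. Those counts therefore stand without a general rate. Under the trend removal 4 named values reversed, Eif2b5 in Hip excitatory neurons (-0.083), Eif4g3 in Hip interneurons (0.00903), and Eif4a2 in Hip astrocytes (-0.033) and oligodendrocytes (-0.094).

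With a replicate block by mouse, the region difference gave 97 calls in place of 94 and the SPF comparison of regions 119 in place of 116. Without the library as a replicate block, the types gave 104 calls in Hip and 51 in PFC. Beyond these and the GF mice above, the block moved no count by over 1.5 times.

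Leaving out each mouse in turn gave 50 to 81 pairs higher and 10 to 17 lower in GF than in SPF mice in Hip (50 and 10 without GF mouse 6), and 25 to 33 higher and 72 to 84 lower in PFC. Against CGF mice it gave 67 to 98 higher and 10 to 20 lower in Hip (10 without GF mouse 6 or GF mouse 7, 11 without CGF mouse 17). Between CGF and SPF mice it gave 0 to 2 in PFC (2 without CGF mouse 18), and between regions in GF mice 4 to 18 (4 without GF mouse 6 or 7, 18 without CGF mouse 19). Of 153 named calls between GF and SPF mice, 107 held without each mouse in turn and 46 lost the call without at least 1, 28 of them without GF mouse 6. Under the 11 other settings 90 held throughout and 63 lost the call or reversed in at least 1, and 43 lost it with the length and GC trend removed. In PFC microglia 11 members could be tested among 2151 genes, and the genes tested rose to 5391 with the 6 libraries of 2 groups and to 5894 with cluster names.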
